A study of Mus musculus with 6 samples.

Results

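Complementarity-determining region 3 (CDR3) amino acid strings that were listed with 2 or more different V genes of the T cell receptor β chain (TRBV) within a single library were examined. A string qualified where it began with C, ended with F or W and carried no stop or frame mark. In all, 8000 of the 156651 such CDR3 strings met this rule in at least 1 of 6 libraries, and they are called multi-V strings here. Of these, 6371 were multi-V in 1 library, 1547 in 2, 75 in 3 and 7 in 4. By tissue, 7737 were multi-V in spleen libraries only, 134 in tumor libraries only and 129 in both.

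The libraries came from C57BL/6 mice that had received 100000 MO4 cells, a B16F10 melanoma line carrying ovalbumin (OVA), in each hindlimb on day 0. Cells named IFN-α-iPSC-pMC, which are myeloid cells grown from induced pluripotent stem cells to make interferon-α, were placed beside the right tumor in 5 doses of 1000000 cells, on days 5 to 7 and again on days 12 and 13, and tumor RNA was taken on day 14. The right, injected tumor is the treated tumor and the left, uninjected one the distant tumor. The spleen of these treated, tumor-bearing mice is the other tissue, so that no group comes from an untreated mouse. The files list receptor sequences alone, so the tissues could not be checked against marker genes. Each tissue has 2 libraries, the series describes 2 mice, and the libraries numbered 1 and 2 in the titles were taken as mouse 1 and mouse 2, which the labels do not state outright. P-values over libraries therefore treat tissues of the same mouse as separate samples and measure the spread between these libraries.

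As background, a β chain gene is joined from a V, a D and a J segment, with bases trimmed and added at the joints. The CDR3 begins at a conserved cysteine in the last residues of the V segment, crosses the D segment and ends at a conserved phenylalanine or tryptophan in the J segment, and it makes most of the contact with the peptide. The other antigen-binding loops, CDR1 and CDR2, lie entirely in the V segment. The same CDR3 on another V gene is therefore a receptor with other CDR1 and CDR2 loops. Many V segments end in nearly the same residues, so different rearrangements can encode the same CDR3. The files used here give amino acids and no nucleotides, and whether a read on a further V gene comes from another T cell, from gene assignment or from amplification was not tested.

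The germline 3′ ends of V segments show how little of the CDR3 tells V genes apart. They are printed 5′ to 3′ from the GENCODE M21 transcripts (GRCm38, chromosome 6), with the bases from the conserved cysteine codon to the segment's end in capitals. The first set holds V genes whose germline CDR3 start is CASSL, which are 8 of the 23 V genes in the files and include the most frequent partners among multi-V strings.
TRBV12-1: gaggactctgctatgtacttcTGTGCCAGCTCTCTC
TRBV12-2: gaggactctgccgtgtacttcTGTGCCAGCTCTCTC
TRBV15: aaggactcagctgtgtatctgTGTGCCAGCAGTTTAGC
TRBV16: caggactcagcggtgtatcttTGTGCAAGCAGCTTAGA
TRBV26: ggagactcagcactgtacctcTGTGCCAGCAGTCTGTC
TRBV3: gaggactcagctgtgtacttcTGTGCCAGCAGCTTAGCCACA
The next set is the TRBV13 family, which gave the most frequent pair over the tumors together.
TRBV13-1: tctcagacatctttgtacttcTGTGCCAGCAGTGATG
TRBV13-2: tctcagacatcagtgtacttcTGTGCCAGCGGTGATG
TRBV13-3: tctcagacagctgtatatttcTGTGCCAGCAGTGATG
The last set holds V genes that were hardly ever seen on a multi-V string.
TRBV1: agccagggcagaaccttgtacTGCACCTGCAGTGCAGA
TRBV20: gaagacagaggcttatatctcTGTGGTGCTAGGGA
TRBV30: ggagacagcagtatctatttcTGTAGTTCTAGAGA
TRBV31: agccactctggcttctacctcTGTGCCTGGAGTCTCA

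TRBV12-1 (chr6:41113550-41114067, + strand) and TRBV12-2 (chr6:41118851-41119364, + strand) have the same bases in capitals, and so do TRBV13-1 (chr6:41116007-41116468, + strand) and TRBV13-3 (chr6:41130147-41130585, + strand). TRBV13-2 (chr6:41121396-41121832, + strand) differs from both of its relatives there and starts the CDR3 with CASGD in place of CASSD. TRBV16 (chr6:41151740-41152230, + strand) reaches CASSL through other codons than the TRBV12 genes. Of the 23 V genes, 17 start the CDR3 with CASS, whereas TRBV1 (chr6:40891229-40891885, + strand) starts it with CTCSA, TRBV20 (chr6:41188273-41188977, + strand) with CGAR, TRBV30 (chr6:41281376-41281990, + strand) with CSSR and TRBV31 (chr6:41557691-41558452, - strand) with CAWSL. The annotation gives 22 of the 23 as V segment genes of the β chain locus and TRBV24 as a V segment pseudogene. No source used here names the build or the germline set behind the deposited V gene names.

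Multi-V strings were far more common in spleen than in tumor. Spleen 1 held 3459 among 57355 CDR3 strings (6.03%, Wilson 95% interval 5.84 to 6.23) and spleen 2 held 5979 among 79689 (7.50%, 7.32 to 7.69). Treated tumor 1 held 94 of 11087 (0.848%, 0.693 to 1.04), treated tumor 2 held 31 of 6529 (0.475%, 0.335 to 0.673), distant tumor 1 held 70 of 9817 (0.713%, 0.565 to 0.900) and distant tumor 2 held 85 of 9118 (0.932%, 0.755 to 1.15). These intervals cover counting error only, since reads amplified by PCR without molecular identifiers are not independent molecules. Both spleens lay above every tumor. The intervals of tumor and spleen libraries did not overlap, but they do not measure the spread between libraries and do not correct for depth.

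The libraries held 42320 to 135599 productive reads, and a library read more deeply can show more V genes per string. The shares were therefore also computed as exact expectations at 42320 reads, the depth of distant tumor 2. At that depth the multi-V share of strings was 0.877% in treated tumor 1, 0.437% in treated tumor 2, 0.675% in distant tumor 1, 0.932% in distant tumor 2, 4.64% in spleen 1 and 5.24% in spleen 2. The mean share was 0.730% ± 0.225 (SD, n = 4) over tumors and 4.94% ± 0.428 (SD, n = 2) over spleens. The tissues did not overlap, and the exact permutation test (two-sided, n = 4 and n = 2) gave p = 0.0667, the smallest its 15 arrangements allow, and 0.167 after Benjamini-Hochberg adjustment over the 5 tissue comparisons made. When each V gene was required to have 2 reads, the difference between tumors and spleens shrank from -4.21 to -1.61 percentage points, with the same direction and the same p. The 2 reads were required at each library's full depth, before the expectation at 42320 reads was taken. Deeper libraries could meet this requirement more easily, so the -1.61 is not fully corrected for depth. The number of T cells behind a library is not known, and in bulk RNA fewer T cells and less receptor RNA per cell cannot be told apart.

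Tumors and spleens differed most among strings of middling read number. Among strings with exactly 2 reads, 10.0% were multi-V in spleen 1 and 12.6% in spleen 2, against 1.76% to 2.47% in the 4 tumors. Among strings with 10 to 99 reads the share was 56.1% and 71.7% in the spleens and 1.50% to 5.86% in the tumors. At 100 reads or more the tumors reached 11.8% to 21.1%, while the spleens held just 4 and 6 strings of that size, of which 2 and 1 were multi-V. In each bin below 100 reads the 2 spleens lay above the 4 tumors without overlap.

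**Figure D1:**
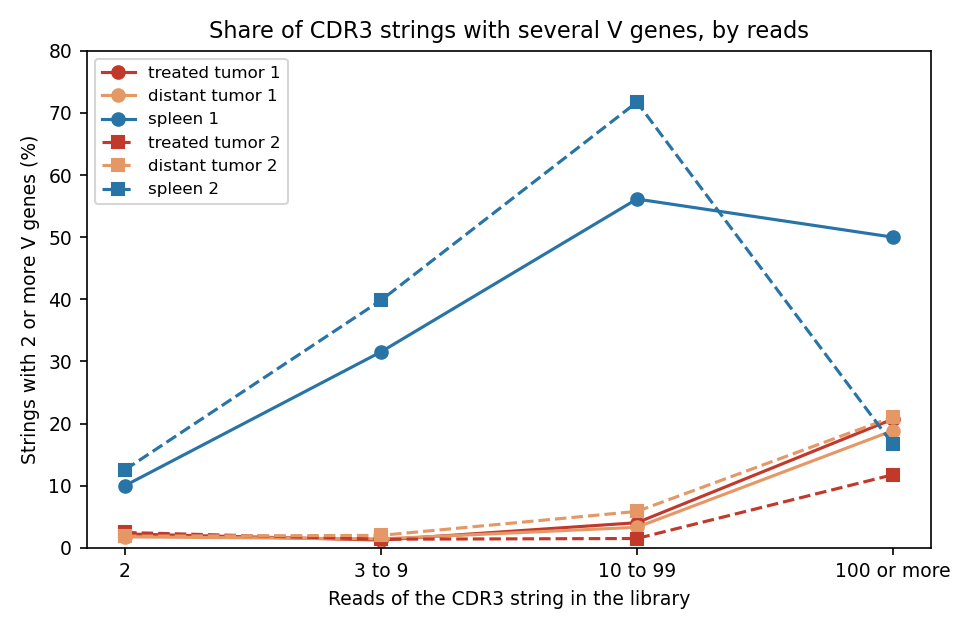
Percent of the CDR3 strings of a library that were listed with 2 or more V genes (vertical axis), by the reads of the string in that library (horizontal axis, 4 bins), with 1 line per library. The 2 spleens rise to 56.1% and 71.7% at 10 to 99 reads, while no tumor exceeds 5.86% there; the last spleen points rest on 4 and 6 strings.

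At the threshold itself, a string just inside has 1 read on each of 2 V genes and a string just outside has 2 reads on the same V gene. Treated tumor 1 held 12 of the former and 524 of the latter, treated tumor 2 held 9 and 355, distant tumor 1 held 9 and 502 and distant tumor 2 held 13 and 680. Spleen 1 held 1029 and 9244, and spleen 2 held 1816 and 12631. Such 2-read strings made up 29.7% and 30.4% of the spleens' multi-V strings and 12.8% to 29.0% of the tumors'.

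The share of reads on multi-V strings did not separate the tissues. At equal depth their part of the reads was 11.8% in treated tumor 1, 5.74% in treated tumor 2, 27.0% in distant tumor 1, 15.7% in distant tumor 2, 11.3% in spleen 1 and 12.5% in spleen 2. The tumors, at 15.1% ± 8.95 (SD, n = 4), enclosed the spleens, at 11.9% ± 0.813 (SD, n = 2), and p was 0.733 by the exact permutation test (two-sided, 4 against 2). In the tumors much of this share rests on a few expanded strings. A single string carried 18.5% of all productive reads of distant tumor 1, and at full depth that library's share falls from 30.5% to 12.0% without it. Without distant tumor 1 the difference between tumors and spleens turned from 3.17 to -0.807 percentage points (p = 0.900 by a two-sided exact permutation test of 3 tumors against 2 spleens).

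Treated and distant tumors were not told apart by either measure. The multi-V share of strings at equal depth was 0.657% ± 0.311 in the treated and 0.803% ± 0.182 in the distant tumors (SD, n = 2 each; exact permutation p = 0.667, two-sided). The treated tumor was higher in mouse 1 and lower in mouse 2, and without treated tumor 2 the difference turned from -0.147 to 0.0734 percentage points. The share of reads was 8.75% ± 4.25 in the treated and 21.4% ± 7.97 in the distant tumors (SD, n = 2 each), and both treated tumors lay below both distant tumors (exact permutation p = 0.3333, two-sided, the smallest that 2 against 2 allows). This difference of -12.6 percentage points became -2.75 without the top multi-V string of each library and -6.97 without distant tumor 1.

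How the reads were divided between the V genes of a string differed between tissues. For strings with at least 10 reads, the V gene with the most reads, called the leading V gene, held a median of 96.1% of the reads in treated tumor 1, 99.1% in treated tumor 2, 95.1% in distant tumor 1 and 93.8% in distant tumor 2. The medians were 46.2% in spleen 1 and 41.7% in spleen 2. These medians are over 72, 18, 44 and 41 strings in the tumors, in that order, and over 217 and 445 in the spleens. The mean of these medians was 96.0% ± 2.29 (SD, n = 4) over tumors and 43.9% ± 3.17 (SD, n = 2) over spleens, with no overlap (p = 0.0667 by the two-sided exact permutation test, adjusted 0.167). With a minimum of 50 reads the difference of 52.1 percentage points fell to 14.1, with 7 and 4 strings left in the spleens and medians of 98.4% and 71.6%.

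Among multi-V strings with 10 or more reads, then, the usual form in the tumors was a leading V gene with a trace of others. The leading V gene held 90% or more of the reads in 50 of 72 such strings in treated tumor 1, 16 of 18 in treated tumor 2, 32 of 44 in distant tumor 1 and 29 of 41 in distant tumor 2, but in 34 of 217 in spleen 1 and 36 of 445 in spleen 2. In these lopsided strings of the tumors, 73.5% to 81.3% of the further V genes had 1 read, and in those of the spleens 92.1% and 92.3%. No V gene held 50% or more of the reads in 110 of 217 strings of spleen 1 and 256 of 445 of spleen 2, against 1 of 72 in treated tumor 1 and none in the other tumors. The 90% boundary was chosen after the values were seen. Multi-V strings with fewer than 10 reads, which these counts leave out, numbered 22 of 94 in treated tumor 1, 13 of 31 in treated tumor 2, 26 of 70 in distant tumor 1 and 44 of 85 in distant tumor 2. Reads off the leading V gene made up 1.12% to 2.94% of the multi-V reads in the treated tumors, 0.754% and 2.80% in the distant tumors, and 42.3% and 45.4% in the spleens.

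**Figure D2:**
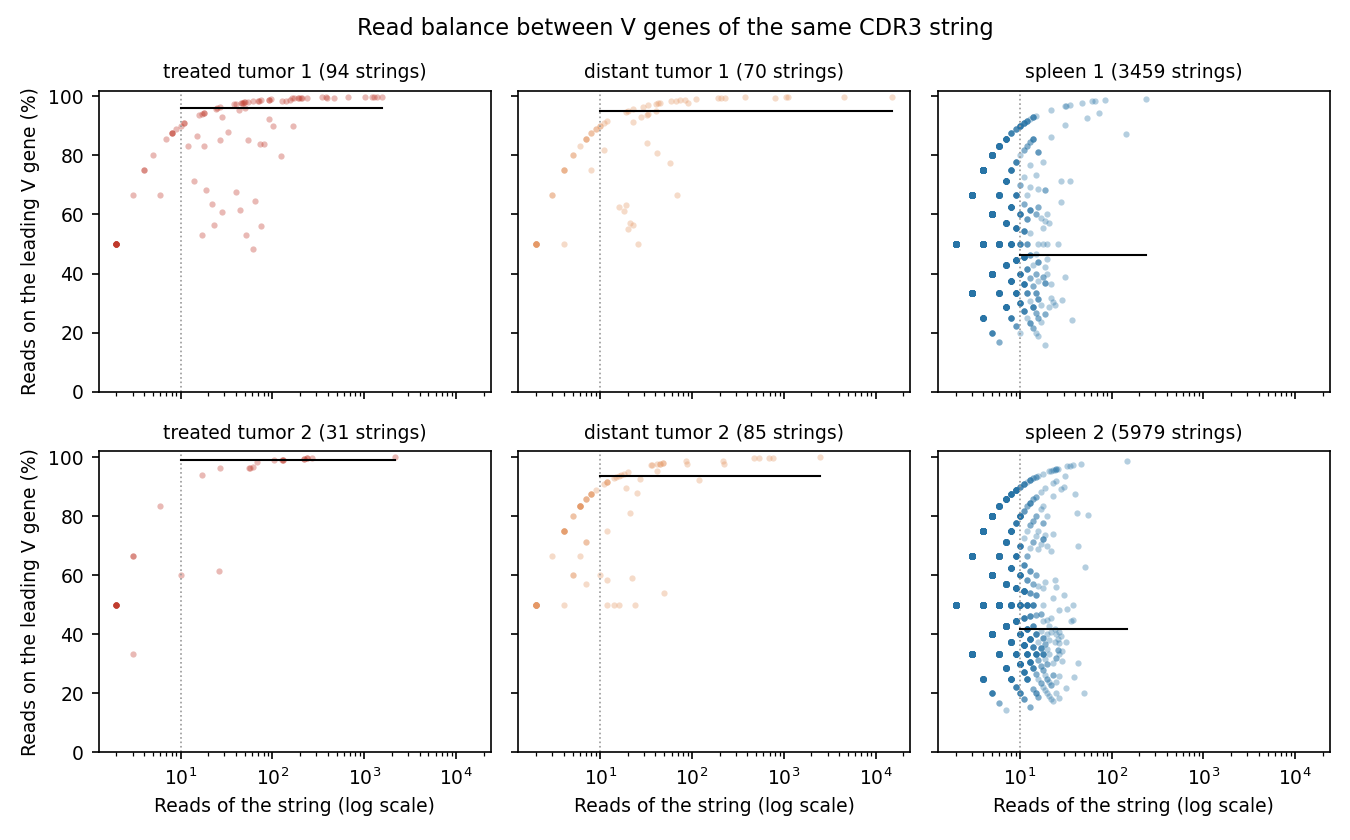
Share of a multi-V string's reads on its leading V gene (vertical axis, percent) against the string's reads in the library (horizontal axis, log scale), 1 point per string and 1 panel per library. The dotted line marks 10 reads and the black line the median of strings with at least 10 reads, which lies at 93.8% to 99.1% in the tumors and at 46.2% and 41.7% in the spleens.

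The multi-V strings with the most reads in the tumors show this in single reads. In distant tumor 1, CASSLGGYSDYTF with TRBJ1-2 had 15201 reads on TRBV12-1, 6 on TRBV12-2 and 1 on TRBV3. The same string had 190 reads on TRBV12-1 and 1 on TRBV12-2 in treated tumor 1, was absent at this depth from spleen 1 and both tumors of mouse 2, and had 1 read in spleen 2. The count of 0 in spleen 1 allows a share of up to 0.00310%. The minor V gene with the most reads was in both tumors the close relative of the leading gene.

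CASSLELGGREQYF with TRBJ2-7 was led by TRBV16 in 3 tumors, with 4461 reads in distant tumor 1, 2172 in treated tumor 2 and 2495 in distant tumor 2. Its further V genes had 1 read each. They were TRBV12-1 and TRBV3 in distant tumor 1, TRBV3 in treated tumor 2 and TRBV15 in distant tumor 2. In spleen 1 and spleen 2 it had 6 and 5 reads with 1 V gene, and in treated tumor 1 it had none. The string thus made up 5.43%, 3.88% and 5.90% of the productive reads of distant tumor 1, treated tumor 2 and distant tumor 2, across both mice.

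Other strings at the head of the tumor lists followed the same division. A 14-residue string with TRBJ2-2 had 1365 reads on TRBV13-2 and 1 each on TRBV13-1 and TRBV14 in treated tumor 1, and 269 on TRBV13-2 and 1 on TRBV13-3 in treated tumor 2. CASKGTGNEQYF with TRBJ2-7 had 1273 reads on TRBV13-1, 2 on TRBV13-2 and 1 on TRBV26 in treated tumor 1 and no read in the other 5 libraries, which allows a share of up to 0.00709% in the shallowest. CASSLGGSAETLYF with TRBJ2-3 had 1107 reads on TRBV17 and 2 on TRBV12-1 in distant tumor 1. In each of these strings the minor V genes had 1 or 2 reads. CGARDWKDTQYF, which begins like the TRBV20 germline, had 684 reads on TRBV20 in distant tumor 2 and 1 on TRBV12-2, whose germline start shares just its first residue. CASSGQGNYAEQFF with TRBJ2-1 had 238 reads on TRBV13-3 and 1 on TRBV13-2 in treated tumor 2. The multi-V string with the most reads in treated tumor 1 has 16 residues and used TRBV12-2 in 1560 reads, with 1 read each on TRBV12-1, TRBV14 and TRBV4. In distant tumor 2 a 15-residue string had 760 reads on TRBV13-1, 2 on TRBV13-2 and 1 on TRBV13-3.

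A smaller set of tumor strings had real weight on a second V gene. In treated tumor 1, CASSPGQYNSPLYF with TRBJ1-6 had 42 reads on TRBV5, 32 on TRBV12-1 and 1 on TRBV3, and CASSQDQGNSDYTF with TRBJ1-2 had 27 on TRBV2 and 24 on TRBV5, which both start with CASSQ in the germline. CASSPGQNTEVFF with TRBJ1-1 had 99 reads on TRBV16 and 25 on TRBV29 there, and in distant tumor 1 of the same mouse 217 reads on TRBV16 and no other V gene. TRBV29 was thus the partner in the treated tumor and had no read on this string in the distant tumor.

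In distant tumor 1 the strings with the most reads on the second gene were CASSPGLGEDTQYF (46 on TRBV16, 23 on TRBV5), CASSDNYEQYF (45 on TRBV13-1, 13 on TRBV13-3) and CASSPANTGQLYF (13 on TRBV12-1, 13 on TRBV3). In distant tumor 2 they were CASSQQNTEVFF (27 on TRBV29, 12 on TRBV5, 11 on TRBV3), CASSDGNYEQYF (12 each on TRBV13-1 and TRBV13-3) and a 14-residue string with TRBJ1-3 (13 on TRBV13-1, 9 on TRBV17). In treated tumor 2 they were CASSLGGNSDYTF (16 on TRBV12-2, 10 on TRBV3), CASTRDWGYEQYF (6 on TRBV19, 4 on TRBV3) and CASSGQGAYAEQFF (59 on TRBV13-3, 2 on TRBV13-2). The last of these was lopsided, with 96.7% of its reads on TRBV13-3, and had little weight on its second V gene. Of these 9 strings, 3, the lopsided one included, paired genes of the TRBV13 family. The rest paired V genes of different families.

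Lopsided and balanced strings differed in who the further V gene was, in tumors and in spleens. Among lopsided strings with at least 10 reads, the further V gene was a relative of the leading gene, meaning a gene with the same TRBV family number, in 24 of 58 cases in treated tumor 1, 12 of 16 in treated tumor 2, 19 of 34 in distant tumor 1 and 14 of 31 in distant tumor 2. Among strings whose leading gene held under 90%, it was a relative in 4 of 24, 0 of 2, 2 of 13 and 1 of 14 cases. In spleens 1 and 2 it was a relative in 13 of 38 and 10 of 39 lopsided cases, and in 53 of 730 and 101 of 1669 balanced ones. In the tumors the germline start of the further V gene matched the string at least as far as that of the leading gene in 31.3% to 67.6% of the lopsided and in 83.3% to 100% of the balanced cases. In the spleens it did so in 76.3% and 59.0% of the lopsided and in 88.6% and 87.6% of the balanced cases. This comparison was made after the values were seen and was not tested.

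**Figure D3:**
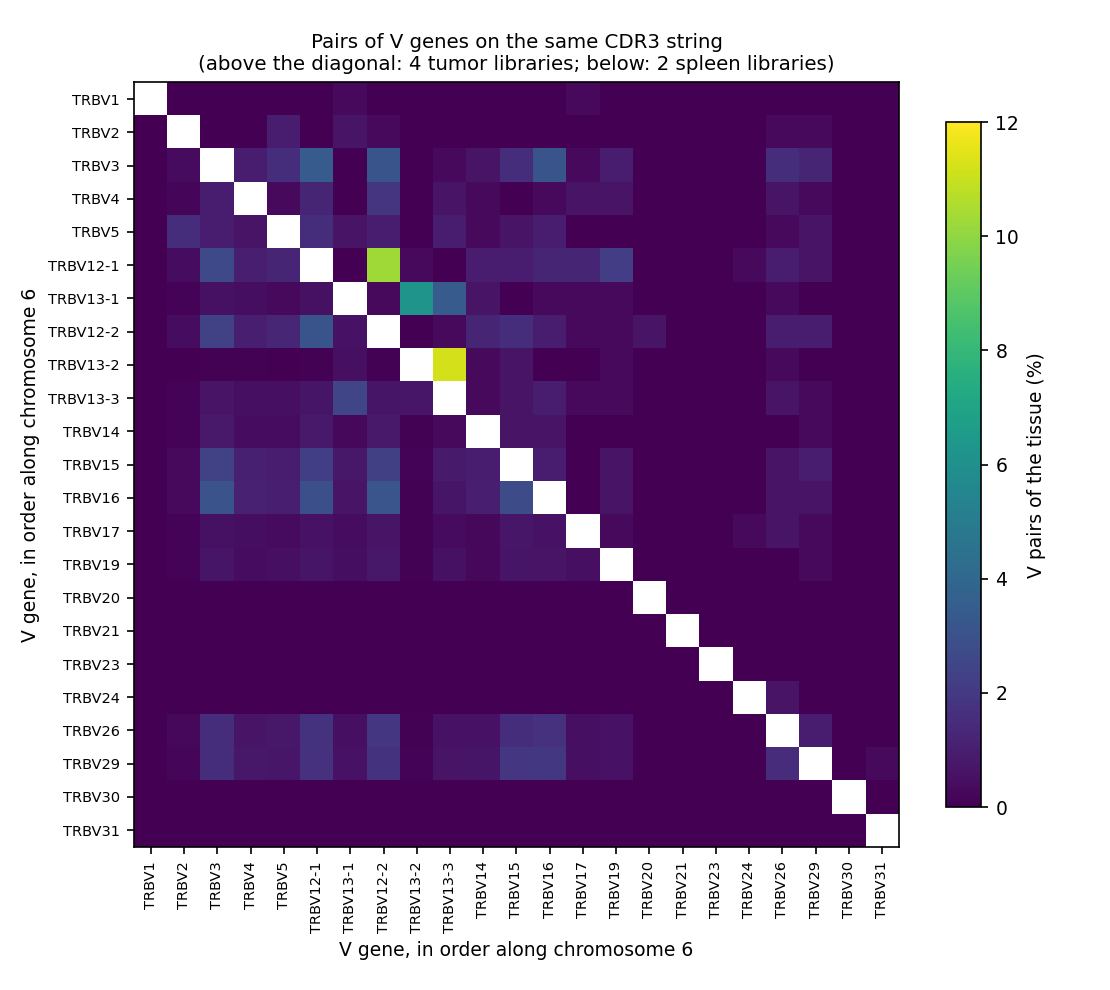
Pairs of V genes found on the same CDR3 string, as percent of all such pairs in the 4 tumor libraries (above the diagonal, 321 pairs) and in the 2 spleen libraries (below the diagonal, 23961 pairs), with V genes in their order on chromosome 6. 3 cells of the TRBV12 and TRBV13 families stand out above the diagonal, at 10.3%, 11.2% and 6.23%, whereas below it no cell exceeds 3.18%.

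Close relatives took a larger part of the V pairs in tumors than V usage alone gives. Counting each pair of V genes on a string once, relatives made up 27.0% of the 115 pairs of treated tumor 1, 42.4% of 33 in treated tumor 2, 39.5% of 76 in distant tumor 1 and 25.8% of 97 in distant tumor 2. If V genes were paired by their share of the library's strings, relatives would make up 3.70%, 4.12%, 3.52% and 3.73%. In the spleens relatives made up 7.50% of 8177 pairs and 6.47% of 15784, beside 4.78% and 4.24% by usage. The excess over usage was thus 6.92 to 11.2 times in the tumors and 1.57 and 1.53 times in the spleens, without overlap and with no test. A string with many V genes, as found in the spleens, adds many pairs to this count. Counted per string the gap was smaller. Relatives were found on 30.9% and 45.2% of multi-V strings in treated tumors 1 and 2 and on 42.9% and 27.1% in distant tumors 1 and 2. In spleens 1 and 2 it was 17.3% and 16.6%.

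Of the 253 possible V pairs, 160 were seen. The pair held by the most strings was TRBV12-1 and TRBV12-2, whose germline segments share 83.3% of their residues, with 33 cases in tumors and 743 in spleens. Next were TRBV12-2 and TRBV16 (3 in tumors, 761 in spleens), TRBV16 and TRBV3 (10 and 736), TRBV12-1 and TRBV16 (4 and 700) and TRBV15 and TRBV16 (3 and 662). All these genes have CASSL as their germline start, and apart from the first pair their segments share 40.7% to 62.2% of residues. In spleen, then, the common pairs joined V genes with the same CDR3 start whether or not the rest of the segment was alike.

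The TRBV13 family had another order in the tissues. TRBV13-2 and TRBV13-3, which share 90% of residues but differ in the CDR3 start, were the most frequent pair over the tumors together. They had 36 cases (9, 10, 8 and 9 in treated tumors 1 and 2 and distant tumors 1 and 2) or 11.2% of the tumor pairs. In the spleens they had 67 and 105 cases, 0.718% of the pairs. TRBV12-1 and TRBV12-2, with 33 tumor cases, had 12, 1, 17 and 3 in the same tumors. The most frequent pair thus differed between the mice. TRBV13-1 and TRBV13-2 had 20 cases in tumors (6.23%) and 116 in spleens (0.484%). TRBV13-1 and TRBV13-3, with the same CDR3 start, had 11 cases in tumors (3.43%) and 604 in spleens (2.52%).

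Both V genes of a pair started with the same 5 germline residues in 39.1% and 21.2% of pairs in the treated tumors, 57.9% and 41.2% in the distant tumors and 48.9% and 50.5% in the spleens. By usage alone 11.8% to 21.2% of pairs would. In the spleens 97.6% and 97.8% of pairs joined 2 genes that start with CASS, beside 47.9% and 51.7% by usage. In the tumors it was 60.6% to 86.8%, beside 52.6% to 61.2%. The lowest of these, in treated tumor 2, was at the level that usage gives.

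The multi-V share of a V gene went broadly, but not strictly, with its germline start. Over all libraries, counting a string once per library and V gene, 24.7% of the 9121 TRBV15 strings were multi-V, 24.2% of 6665 for TRBV26, 22.8% of 10406 for TRBV12-1 and 22.8% of 10871 for TRBV12-2. The order among these genes differed between tissues, since TRBV26 was above TRBV15 in both spleens (28.1% and 31.6%) and TRBV12-1 was above TRBV15 in all 4 tumors. At the other end were TRBV1 with 3 of 13090 strings (0.0229%), TRBV20 with 3 of 5922 (0.0507%), TRBV31 with 18 of 9488 (0.190%) and TRBV30 with 1 of 464 (0.216%). TRBV13-2, the gene with the most strings of all, 22887, had 466 multi-V strings (2.04%), and its start CASGD is found in no other V gene of the files. These shares come mostly from the spleens, where TRBV15 reached 26.7% and 30.0%, whereas in the tumors it reached 0.437% to 3.51%. Over all libraries TRBV4 (start CASS, 21.2%) and TRBV14 (CASSF, 18.6%) were above TRBV29 (CASSL, 17.8%). In treated tumor 2 TRBV13-2, at 1.99%, was above TRBV15 and TRBV26, at 0.437% and 0.433%. It was below both of them in the other tumors.

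TRBV12-1 and TRBV13-2 lay closer together in the tumors. TRBV13-2 strings were multi-V in 1.30%, 1.99%, 0.963% and 1.69% of cases in treated tumors 1 and 2 and distant tumors 1 and 2, close to its 1.73% and 2.51% in the spleens. TRBV12-1 strings were multi-V in 4.68%, 4.49%, 2.26% and 4.25% of cases in the same tumors, against 25.6% and 29.4% in the spleens. TRBV24, annotated as a V segment pseudogene, was named on 84 strings, of which 19 were multi-V. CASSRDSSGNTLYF with TRBJ1-3 had 29 reads on TRBV26 and 4 on TRBV24 in treated tumor 1, and 11 and 7 in distant tumor 1. TRBV24 and TRBV26 share 63.3% of residues and the start CASSL. TRBV24 and this string lie outside the rule for named items and were chosen after their values were seen.

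Most multi-V strings had 2 V genes, which was 85 of 94 in treated tumor 1, 30 of 31 in treated tumor 2, 67 of 70 in distant tumor 1, 79 of 85 in distant tumor 2, 2454 of 3459 in spleen 1 and 4100 of 5979 in spleen 2. Strings with 5 or more V genes made up 5.17% and 6.71% of the spleens' multi-V strings and were absent from the tumors, where the most was 4 V genes. The largest number was 13, in both spleens, and it belonged to the same string, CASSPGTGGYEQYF with TRBJ2-7. That string had 37 reads in spleen 1, with 9 on TRBV5 and no more than 4 on any other gene, and 50 in spleen 2, with 10 on TRBV3 and 8 on TRBV5. In treated tumor 1 it had 62 reads on TRBV19 and 12 on TRBV29, in distant tumor 1 17 on TRBV29, in treated tumor 2 1 on TRBV14, and in distant tumor 2 none.

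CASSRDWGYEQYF, also with TRBJ2-7, had 12 V genes in 23 reads of spleen 2 and 6 V genes in 16 reads of spleen 1, and a single read in the tumors. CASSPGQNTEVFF had 11 V genes in 19 reads of spleen 2 and 10 V genes in 24 reads of spleen 1. In spleen 2 no V gene of either string had more than 4 reads. In spleen 1 TRBV12-1 had 7 of the 16 reads of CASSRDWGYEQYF (43.8%) and TRBV12-2 had 7 of the 24 of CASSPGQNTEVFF (29.2%). The same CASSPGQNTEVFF was carried by TRBV16 and TRBV29 in treated tumor 1, as given above. A string that was spread over many V genes in spleen could therefore be concentrated on 1 or 2 in a tumor.

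Spleen strings with the most reads on a second V gene were still small. In spleen 1 they were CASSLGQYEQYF (12 on TRBV16, 10 on TRBV15, 31 reads in all on 5 V genes), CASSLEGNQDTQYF (8 on TRBV16, 8 on TRBV3, 19 in all on 4) and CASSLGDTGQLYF (25 on TRBV15, 7 on TRBV16, 35 in all on 4). In spleen 2 they were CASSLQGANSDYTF (17 on TRBV26, 13 on TRBV12-2, 38 in all on 5), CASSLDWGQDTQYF (16 on TRBV12-2, 11 on TRBV12-1, 36 in all on 7) and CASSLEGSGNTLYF (32 on TRBV16, 10 on TRBV3, 51 in all on 5). All 6 begin with CASSL and are shared out among V genes with that germline start, with TRBV19, TRBV2, TRBV4 and TRBV5 as the exceptions.

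The multi-V strings with the most reads in the spleens ranged from lopsided to spread. In spleen 1 a 15-residue string had 236 reads on TRBV14 and 1 each on TRBV13-2 and TRBV5, and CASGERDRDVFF with TRBJ1-1 had 84 on TRBV13-2 and 1 on TRBV13-1. In spleen 2 a 14-residue string with TRBJ2-1 had 146 reads on TRBV13-2 and 2 on TRBV13-3, and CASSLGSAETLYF with TRBJ2-3 had 45 on TRBV4 and 1 to 3 on each of 5 other V genes. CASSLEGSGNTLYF with TRBJ1-3 had 32 of its 51 reads on TRBV16 (62.7%) and the rest on 4 other V genes in spleen 2. The TRBV13-2 string of 14 residues in spleen 2 also had 758 reads in treated tumor 2, with a single V gene, and 533 in distant tumor 2, with 2 V genes. In spleen 1 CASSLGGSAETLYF had 124 reads on TRBV17 and 18 on 6 other V genes.

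Multi-V strings were shorter than strings with 1 V gene. The comparison set was the strings of the same library with 1 V gene and at least 2 reads, which could have been multi-V. Mean CDR3 length was 13.4 ± 1.36 residues in treated tumor 1 (SD over 94 strings) against 13.9 ± 1.43 (2564 strings), 13.7 ± 1.37 (31) against 13.9 ± 1.44 (1239) in treated tumor 2, 13.3 ± 1.49 (70) against 13.9 ± 1.38 (2701) in distant tumor 1 and 13.3 ± 1.39 (85) against 13.9 ± 1.38 (2755) in distant tumor 2. In spleen 1 it was 13.4 ± 1.22 (3459) against 13.9 ± 1.45 (14218) and in spleen 2 13.4 ± 1.24 (5979) against 13.9 ± 1.45 (18426). The multi-V strings were shorter in 6 of 6 libraries, with a mean difference of -0.504 residues (SD 0.148, n = 6). The exact sign-flip permutation test over libraries (two-sided) gave p = 0.0313, the smallest that 6 libraries allow, and 0.0313 after adjustment over the 3 such comparisons.

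**Figure D4:**
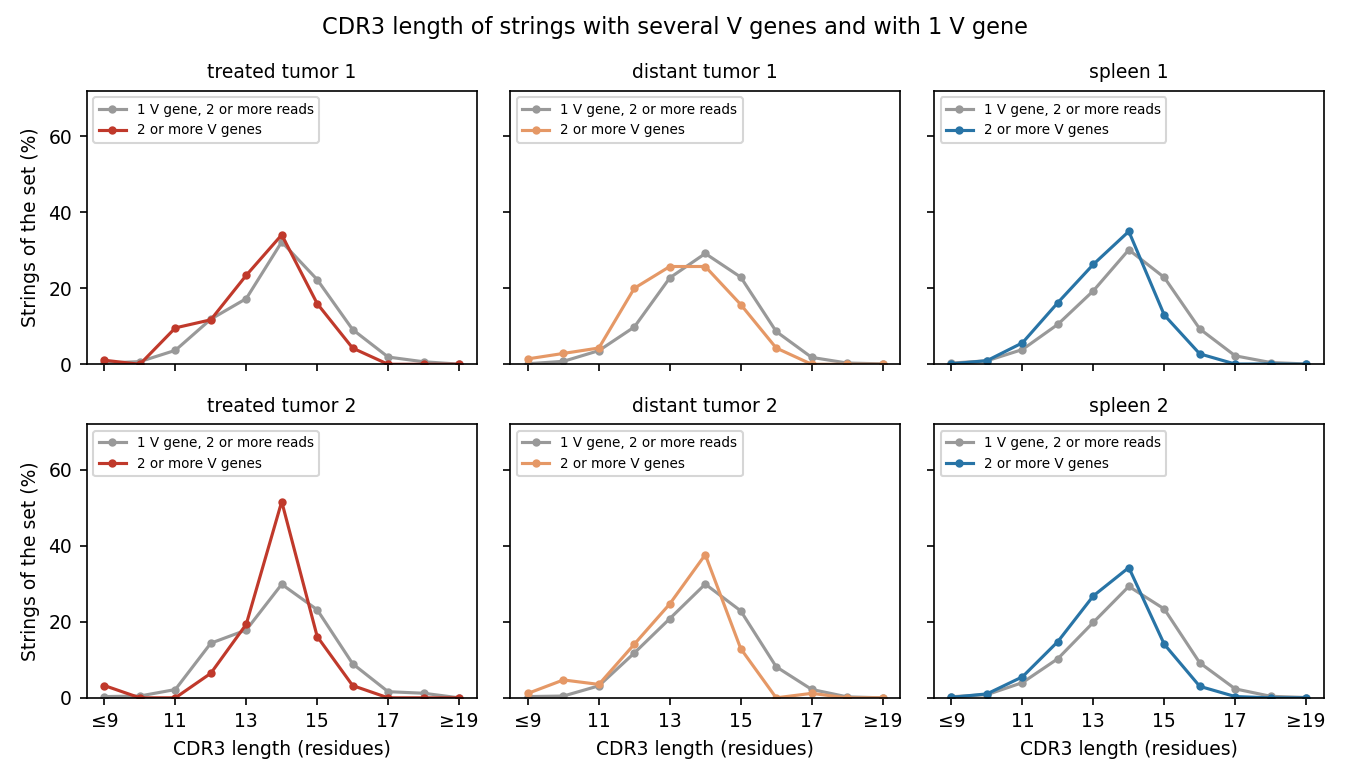
CDR3 length in residues (horizontal axis) of multi-V strings (colored) and of strings with 1 V gene and at least 2 reads (grey), as percent of each set (vertical axis), in 1 panel per library. In every library the colored mean lies below the grey mean, with differences of -0.648 to -0.229 residues; the panel of treated tumor 2 rests on 31 multi-V strings.

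The share of multi-V strings was lower in long strings of both tissues. The pooled shares were close at 9 residues, and the spleens were higher from 10 to 16. In the spleens together it was 8.70% at 9 residues (6 of 69 strings), 25.1% at 10 and 29.0% at 11. It was 29.9% at 12, 28.2% at 13 residues and 25.2% at 14, then 14.6% at 15, 8.37% at 16 and 2.85% at 17. In the tumors together it was 9.09% at 9 residues (2 of 22 strings), 9.38% at 10 (6 of 64) and 4.69% at 11. It was 3.51% at 12, 3.49% at 13 residues, 3.37% at 14, 1.95% at 15 and 0.986% at 16. The multi-V tumor strings of 10 residues came from distant tumor 1 (2 of 23) and distant tumor 2 (4 of 17). Treated tumors 1 and 2 had 0 of 18 and 0 of 6. Multi-V strings of 17 or more residues numbered 5 in spleen 1, 20 in spleen 2, 1 in distant tumor 2 and none in the other tumors. Strings with 1 V gene were that long in 2.26% to 2.84% of cases.

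Fewer residues of the multi-V strings lay outside the germline ends. After matching the leading V gene's germline start and the J gene's germline end, the residues left in between averaged 3.50 in treated tumor 1, 4.23 in treated tumor 2, 3.10 in distant tumor 1, 3.08 in distant tumor 2, 3.14 in spleen 1 and 3.23 in spleen 2. In strings with 1 V gene they averaged 4.12, 4.40, 4.14, 3.92, 3.81 and 3.84 in the same order. The difference was -0.658 residues (SD 0.289, n = 6) and was negative in 6 of 6 libraries, with p = 0.0313 by the exact sign-flip permutation test (two-sided, adjusted 0.0313). With strings of 1 read added to the comparison set, the difference grew to -1.88 residues.

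The starts of the strings mirror the V genes. CASS opened 92.0% and 91.0% of multi-V strings in the spleens and 54.1% and 55.9% of the strings with 1 V gene. In the tumors the shares were 80.9% against 61.9% in treated tumor 1, 51.6% against 62.2% in treated tumor 2, 84.3% against 65.4% in distant tumor 1 and 84.7% against 63.1% in distant tumor 2. Treated tumor 2, with the highest share of relatives among its pairs, was the exception to the excess of CASS.

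A single J gene, TRBJ2-7, was used more often by multi-V strings in all 6 libraries. TRBJ2-7 ended 33.0% of multi-V strings in treated tumor 1, 38.7% in treated tumor 2, 27.1% in distant tumor 1, 36.5% in distant tumor 2, 23.3% in spleen 1 and 23.5% in spleen 2. Strings with 1 V gene used it in 18.5% to 19.9% of cases. The mean difference was 11.3 percentage points (SD 6.33, n = 6). TRBJ1-4 (-2.59 points on average), TRBJ1-5 (-1.70) and TRBJ2-2 (-1.35) were used less often in 6 of 6 libraries. For these 4 genes the exact sign-flip permutation test (two-sided) gave p = 0.0313, the smallest possible with n = 6, and an adjusted p of 0.0938. Hence 0 of 12 J genes (0%) passed an adjusted p of 0.05, and 4 had an unadjusted p below it.

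The other J genes moved both ways between libraries. TRBJ1-1 was higher in 4 libraries and lower in 2 (mean 0.572 points), and TRBJ1-3, TRBJ2-3 and TRBJ2-5 were higher in 3 and lower in 3, with mean differences of -0.191, -2.07 and -1.48 points. TRBJ1-2, TRBJ1-6, TRBJ2-1 and TRBJ2-4 were lower in 4 of 6, with mean differences of -0.420, -1.15, -0.511 and -0.396 points. The adjusted p of these 8 genes lay between 0.525 and 0.938 by the exact permutation test.

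**Figure D5:**
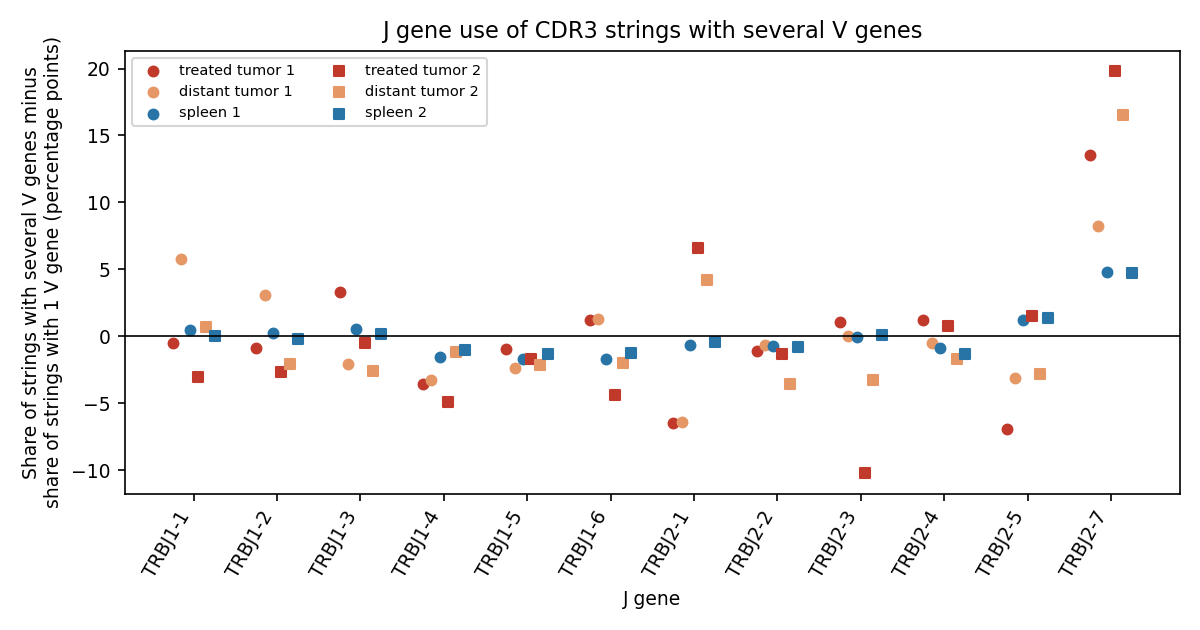
Share of multi-V strings that use a J gene minus the share among strings with 1 V gene and at least 2 reads (vertical axis, percentage points), for 12 J genes (horizontal axis) and 6 libraries (points). TRBJ2-7 lies above 0 in every library, from 4.73 to 19.8 points, and TRBJ1-4, TRBJ1-5 and TRBJ2-2 lie below 0 in every library.

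The V genes of a multi-V string nearly always came with the same J gene. This follows largely from the rule, since they share the whole CDR3 and the 12 J genes have different germline CDR3 ends. A string was listed with more than 1 J gene in 3 of 94 cases in treated tumor 1, 0 of 31 in treated tumor 2, 1 of 70 in distant tumor 1, 2 of 85 in distant tumor 2, 47 of 3459 in spleen 1 (1.36%) and 83 of 5979 in spleen 2 (1.39%). Among strings with 1 V gene and at least 2 reads, 0.0726% to 0.323% had several J genes. Requiring the V genes to share a J gene left the spleens' share of strings at equal depth at 4.61% and 5.21%.

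Multi-V strings recurred across the mice. Of the multi-V strings of treated tumor 1, 69.1% were found with any V gene in a library of mouse 2, against 25.9% of its strings with 1 V gene and at least 2 reads. The values were 41.9% against 23.2% in treated tumor 2, 58.6% against 27.7% in distant tumor 1, 70.6% against 26.6% in distant tumor 2, 71.6% against 21.6% in spleen 1 and 56.6% against 15.8% in spleen 2. The share was higher in 6 of 6 libraries, by 38.0 percentage points on average (SD 11.3, n = 6; exact sign-flip permutation p = 0.0313, two-sided, adjusted 0.0313). Strings with more reads are found elsewhere more easily, and among strings with exactly 2 reads the difference was 34.5 points.

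The spleens of the 2 mice shared 1572 multi-V strings, which was 45.4% of those of spleen 1 and 26.3% of those of spleen 2. In 528 of the 1572 at least 2 V genes were the same in both spleens, and in 319 the leading V gene was the same. Where V genes tied for the most reads, the first by name was taken as the leading gene, and strings with few reads often tie, so the last count depends on that choice.

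A part of the multi-V strings of each tumor were multi-V in the spleen of the same mouse as well. The same share among the tumors' strings with 1 V gene was not computed, so these overlaps have no background beside them. In mouse 1 it was 37 of 94 in treated tumor 1 (39.4%) and 25 of 70 in distant tumor 1 (35.7%), and in mouse 2 it was 7 of 31 in treated tumor 2 (22.6%) and 46 of 85 in distant tumor 2 (54.1%). With the spleen of the other mouse it was 46.8%, 40.0%, 19.4% and 36.5% in the same order. As shares of the spleens' multi-V strings the overlaps within a mouse came to 0.117% to 1.07%. Spleen 2, which holds more multi-V strings, gave the higher share for all 4 tumors.

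Few strings were multi-V in both tumors of a mouse, 5 in mouse 1 (5.32% of those of the treated and 7.14% of those of the distant tumor) and 2 in mouse 2 (6.45% and 2.35%). More were present in the other tumor with any number of V genes. In mouse 1 it was 45 multi-V strings of the treated tumor (47.9%) and 26 of the distant tumor (37.1%). In mouse 2 it was 13 (41.9%) and 20 (23.5%). The same shares among strings with 1 V gene were not computed. In all 7 strings that were multi-V in both tumors, the leading V gene was the same in both. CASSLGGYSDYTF and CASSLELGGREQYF were 2 of them. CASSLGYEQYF with TRBJ2-7 was led by TRBV3 with 171 reads in treated tumor 1 and 6 in distant tumor 1, with 1 read on TRBV12-1 in the former and 1 on TRBV26 in the latter. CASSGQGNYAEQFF was led by TRBV13-3 with 238 and 44 reads in treated and distant tumor 2, with 1 read on TRBV13-2 and 1 on TRBV13-1. In 3 of the 5 strings of mouse 1 a further V gene was also the same in both tumors, TRBV12-2 in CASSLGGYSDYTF, TRBV24 in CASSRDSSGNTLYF and TRBV12-1 in the string of 16 residues led by TRBV12-2. In the other 4 strings the further V genes differed between the tumors.

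The 3 strings that were multi-V in the most libraries, taking ties by reads, show the leading gene by tissue and mouse. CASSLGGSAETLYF was led by TRBV17 in treated tumor 1 (95 of 96 reads), distant tumor 1 (1107 of 1109) and spleen 1 (124 of 142), but in spleen 2 by TRBV15 (9 of 26 reads on 9 V genes, none of them TRBV17). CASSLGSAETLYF was led by TRBV12-1 in treated tumor 1 (26 of 28), by TRBV4 in distant tumor 2 (220 of 225) and spleen 2 (45 of 56), and by TRBV16 in spleen 1 (3 of 9). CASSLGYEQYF was led by TRBV3 in the 4 tumors and in spleen 1 (9 of 29), while in spleen 2 TRBV15 and TRBV3 had 10 of its 39 reads each. The first string in mouse 1 and the next in mouse 2 thus had the same leading gene in the spleen as in a tumor, and another leading gene in the spleen of the other mouse.

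Multi-V strings were more frequent among the strings with the most reads than among all strings, to a degree that varied between libraries. A string with more reads can show further V genes more easily. Of the 10 CDR3 strings with the most reads in a library, 5 were multi-V in treated tumor 1, 1 in treated tumor 2, 5 in distant tumor 1, 5 in distant tumor 2, 5 in spleen 1 and 1 in spleen 2. Of the top 100 it was 22, 10, 15, 15, 49 and 62 in the same order. Among all strings the multi-V share was 0.848%, 0.475%, 0.713%, 0.932%, 6.03% and 7.50% in that order. Per 1000 reads on the leading V gene, lopsided strings had 6.95, 4.62, 2.00 and 7.79 reads on further V genes in treated tumors 1 and 2 and distant tumors 1 and 2, and 43.4 and 53.5 in the spleens. Each such string has at least 1 further read by definition, so small strings give high rates. The 34 and 36 spleen strings had 990 and 785 leading reads in all. The 50, 16, 32 and 29 tumor strings, in the above order, had 11807, 4117, 24530 and 6158. The rates therefore do not compare the tissues directly.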

How the data were processed

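Receptor β chain RNA was sequenced from 6 libraries after 5′ adaptor ligation and constant-region PCR, with paired reads of 300 bp and no molecular identifiers named, per the labels' protocols. Each deposited file pairs a V and a J gene name with a CDR3 amino acid string, a read count and a percent of reads, per the file headers. The authors' counts are whole reads without normalization, and the authors' percent values were not used further. No source used here names the aligner, germline set, build or error handling.

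Reads of a string were summed per V gene in each library; a V gene counted from 1 read. Shares at 42320 reads are exact hypergeometric expectations over strings, without random draws, and were tested on simulated data. All 23 TRBV and 12 TRBJ symbols matched GENCODE M21. Identity is the share of identical residues in a global alignment (BLOSUM62) of the last 90 germline residues up to the cysteine. Tests were exact permutation tests over libraries, with Benjamini-Hochberg adjustment, in Python 3.11.15 with NumPy 2.4.6, pandas 2.3.3 and SciPy 1.17.1. Floors for a count of 0 are 3 reads. Named strings were, per library, the 3 with the most reads and the 3 with the most on a second V gene, and over all libraries the 3 with the most V genes and the 3 multi-V in the most libraries. V pairs were the 5 most frequent and every pair of relatives, V genes the 4 with the highest and the 4 with the lowest multi-V share among those with 100 strings or more, and J genes all. Strings over 14 residues and 3 others are given by gene and length. The members and lists were chosen with earlier results of these data known. Alternatives covered depth, the minimum of reads, V families, the shared J gene, the comparison set and each library left out.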

Additional observations from a re-analysis of the deposited data

Results flagged for a closer look

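Strings outside the rule were also listed with several V genes, which is a signal in reads that the comparisons above leave out. Among strings with a stop or frame mark, 33 in treated tumor 1, 13 in treated tumor 2, 25 in distant tumor 1, 5 in distant tumor 2, 34 in spleen 1 and 64 in spleen 2 had 2 or more V genes. That was 12.2%, 10.2%, 11.1% and 3.65% of the marked strings with at least 2 reads in these tumors, beside 4.99% and 6.51% for the spleens. The multi-V strings of the report made up 2.44% to 3.54% of the unmarked strings with at least 2 reads in the tumors, and 19.6% and 24.5% of those of the spleens. Among marked strings 3 of the 4 tumors were thus above both spleens and distant tumor 2 was below them, whereas among unmarked strings all 4 tumors were below both. This difference was not tested. Among unmarked strings without the C start or without the F or W end, those with 2 or more V genes were 4 of the 71 with at least 2 reads in treated tumor 1, 1 of 45 in treated tumor 2, 0 of 72 in distant tumor 1, 0 of 41 in distant tumor 2, 2 of 25 in spleen 1 and 1 of 32 in spleen 2.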

How the results depend on the processing

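The following mean differences over libraries kept their direction under every alternative tried for them. In tumors against spleens they were the lower multi-V share of strings and the higher share of reads on the leading V gene. In multi-V against other strings they were the shorter CDR3, the fewer unmatched residues and the higher share found in the other mouse. Leaving out a library gave -4.51 to -3.91 percentage points for the share of strings in tumors minus spleens and 49.9 to 54.4 points for the leading V gene. It gave -0.559 to -0.475 residues for length, -0.755 to -0.582 for unmatched residues and 35.6 to 41.8 points for the other mouse, each with an exact permutation p of 0.0625, the smallest that 5 libraries allow. Genes of a family counted as 1 gave -0.658 for unmatched residues with p = 0.0625 by the exact permutation test. In that setting treated tumor 2 was reversed, with 4.41 unmatched residues in 17 multi-V strings against 4.39 in the others. Why it was reversed was not tested. The share of reads in tumors minus spleens was reversed at full depth (-0.741), with genes of a family counted as 1 (-1.70) and, chosen after seeing the data, without the top string of each library (-3.93), and ranged from -0.807 to 6.28 points with a library left out; the cause was not tested beyond the weight of single strings. With a library left out, treated minus distant tumors ranged from -0.367 to 0.0734 points for strings, reversed without treated tumor 2, and from -18.2 to -6.97 for reads. Without the top string of each library, chosen after seeing the data, the difference for reads was -2.75. With the replicate block, differences within a title number gave -0.147 points for strings (exact permutation p = 1) and -12.6 for reads (exact permutation p = 0.500, the smallest 2 pairs allow) and changed no call. No J gene was called under any alternative, but this says little about stability. With a library left out no call was possible, since the smallest exact permutation p is 0.0625. With all 6 libraries a call needed more J genes at the smallest p than the 4 found there. Depth limits the count of V genes per string, and the V genes with 1 read carry most of the multi-V calls in tumors and spleens alike. With 2 reads required of each V gene, 34 and 5 multi-V strings remained in treated tumors 1 and 2. Distant tumors 1 and 2 kept 23 and 24, spleen 1 kept 775 and spleen 2 kept 1421.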
